A study of Mus musculus with 12 samples.

Results

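The classical cadherins examined here were 10 genes of the 21556 in the count table: Cdh1, Cdh2, Cdh3, Cdh4, Cdh5, Cdh6, Cdh10, Cdh11, Cdh13 and Cdh15. They were selected by name with earlier results of these libraries known, Cdh6 for its response to TGF-β2 and the others as its relatives. Their differences after TGF-β2 are therefore given as a description with no test, and tests are given only between genotypes and for other genes. RNA sequencing was done on primary fibroblasts from abdominal skin of wild-type C57BL/6 mice (WT) and of B6.129-Nox4tm1Kkr/J mice (Nox4 KO), which lack functional NADPH oxidase 4. Serum-starved cultures were left as controls or given TGF-β2 at 10 ng/ml for 24 h, with 3 biological replicates in each of 4 groups. The labels do not name the animal behind each culture, nor its age, so p-values measure the spread between these cultures. The study asked whether NOX4 is needed for the change of skin fibroblasts into myofibroblasts.

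Cadherins are calcium-dependent adhesion molecules that join neighbouring cells. Classical cadherins bind p120-catenin and β-catenin through their cytoplasmic tail, and α-catenin links the complex to actin. Cdh1, Cdh2, Cdh3, Cdh4 and Cdh15 belong to type I, and Cdh5, Cdh6, Cdh10 and Cdh11 to type II. Cdh13 lacks the cytoplasmic tail and is held in the membrane by a lipid anchor, so it is not a classical cadherin in the strict sense. Fibroblasts are known for Cdh11 and Cdh2, and Cdh11 has been described in myofibroblast contacts.

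Libraries held 35118344 to 43796260 counts. Within groups, the distance between libraries (chi-square per gene) was 14.4 to 147, and in the TGF-β2 groups the pairs that included replicate 2 of WT (119 and 147) and replicate 3 of Nox4 KO (118 and 79.5) were the farthest apart. Nox4 was still counted in the Nox4 KO libraries, with 102 to 207 counts in controls against 203 to 398 in WT, and 782 to 1175 after TGF-β2 against 1314 to 2471. These counts cover the whole gene and do not resolve a deleted part, so they do not check the genotype label. All 12 genes of a fibroblast marker list had a mean of at least 1 RPKM (the count scaled to the library total and to exon length) in some group. Their summed level was 6670 to 7370 RPKM in WT controls and 5490 to 6490 RPKM after TGF-β2. In Nox4 KO it was 6750 to 8070 and 5840 to 6700 RPKM, so it was lower in treated libraries without overlap in both genotypes.

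Cdh6, a type II cadherin best known from kidney and from the developing nervous system, lies on the minus strand of chromosome 15 at 13028701-13173675 (GRCm38). It was counted 15, 16 and 10 times in the WT controls and 746, 233 and 403 times after TGF-β2. In Nox4 KO it was counted 23, 19 and 24 times in controls and 1064, 798 and 267 times after TGF-β2. Every TGF-β2 library lay above every control library in both genotypes. Here and for the members below, the share of all genes separated in this way by TGF-β2 was not counted. At any fold, 22.6% of tested genes passed an adjusted p of 0.05 by edgeR in WT and 30.0% in Nox4 KO. The Cdh6 level went from 0.0447 ± 0.0124 to 1.44 ± 0.749 RPKM in WT (mean ± SD, n = 3), and from 0.0701 ± 0.0129 to 2.01 ± 1.15 RPKM in Nox4 KO. The log2 fold change was 5.05 (SE 0.51) in WT and 4.93 (SE 0.58) in Nox4 KO. Leaving out any single library kept it between 4.55 and 5.37 in WT and between 4.51 and 5.32 in Nox4 KO. The lowest treated libraries, replicate 2 of WT and replicate 3 of Nox4 KO, were those farthest from their group by the distance above, and the part of that distance in the Cdh6 level was not tested. In these cultures, more cells of a kind and more RNA per cell cannot be told apart.

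**Figure D1:**
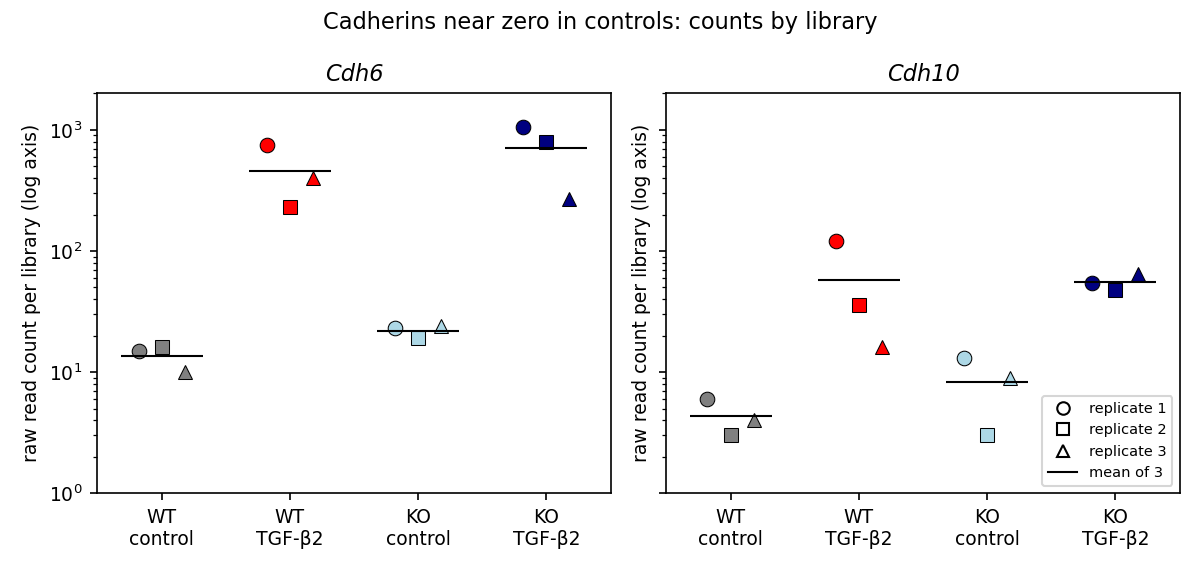
Raw read counts of Cdh6 (left) and Cdh10 (right) in each of the 12 libraries on a log axis, by group, with a marker for each replicate number and a line at the mean of 3. Cdh6 lies at 10 to 24 counts in all control libraries and at 233 to 1064 after TGF-β2, and Cdh10 at 3 to 13 and 16 to 120.

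Cdh10, a type II cadherin known from brain, lies on the plus strand of the same chromosome at 18818947-19014236, with its start 5.65 Mb from that of Cdh6. It had 6, 3 and 4 counts in the WT controls and 120, 36 and 16 after TGF-β2. In Nox4 KO the counts were 13, 3 and 9 in controls and 54, 48 and 65 after TGF-β2. As with Cdh6, control and treated libraries did not overlap in either genotype, but in WT 120 of the 172 counts after TGF-β2 came from replicate 1. Cdh10 stayed under the filter of a mean of 1 RPKM. In a fit without that filter its log2 fold change was 3.71 (SE 0.79) in WT and 2.67 (SE 0.49) in Nox4 KO. At the treated means of 0.407 ± 0.374 and 0.366 ± 0.0635 RPKM, it remained the smaller of the pair in level.

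The 250 bases before the start of Cdh6 and of Cdh10 are shown because these were the members that went from near 0 to a measured level. They were taken from RefSeq on GRCm38.p6, whose promoter table holds Cdh6, Cdh10 and Cdh15 among the 10 genes. The Cdh6 window is chr15:13173676-13173925 on the minus strand. The Cdh10 window is chr15:18820079-18820328 on the plus strand, which falls in an intron of longer annotated Cdh10 transcripts. Capitals mark matches to CANNTG, the E-box bound by factors such as SNAI1, SNAI2 and TWIST1.
Cdh6: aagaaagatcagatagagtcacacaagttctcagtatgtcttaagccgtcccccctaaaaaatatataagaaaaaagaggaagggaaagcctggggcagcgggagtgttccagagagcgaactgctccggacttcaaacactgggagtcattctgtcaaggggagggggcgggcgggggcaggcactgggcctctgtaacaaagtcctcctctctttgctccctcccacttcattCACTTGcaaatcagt
Cdh10: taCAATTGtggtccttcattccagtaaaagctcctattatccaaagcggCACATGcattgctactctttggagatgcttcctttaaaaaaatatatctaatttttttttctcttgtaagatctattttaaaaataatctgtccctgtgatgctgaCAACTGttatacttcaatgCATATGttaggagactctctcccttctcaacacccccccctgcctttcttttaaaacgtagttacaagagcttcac

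Both strands of these windows were searched for 5 motifs, and a match is only a match of letters. CANNTG matched 1 time before Cdh6, beginning 15 bases from the start, and 4 times before Cdh10, and 66.2% of 32851 promoter windows of the same length hold it. CACCTG, a subset of CANNTG, matched in neither window and is held by 17.2% of all windows. CAGAC, the short SMAD-binding box, matched in neither and is held by 42.2%. The longer SMAD palindrome GTCTAGAC, which can overlap CAGAC, is held by 0.167%, and TGANTCA, an AP-1 site, by 6.75%, and neither window held them. The share of G and C was 51.2% before Cdh6 and 36.8% before Cdh10, against a median of 52.4% over all windows.

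Of 7 genes in the table whose lower annotated coordinate lies within 1 Mb of that of Cdh6, 5 had a mean of at least 1 RPKM in some group. Golph3, a Golgi membrane protein, was the only one of the 5 to pass an adjusted p of 0.05, with log2 fold changes of 0.38 (SE 0.08, adjusted p = 0.0191) in WT and 0.47 (SE 0.07, adjusted p = 0.00856) in Nox4 KO by edgeR. Drosha, the nuclear miRNA-processing enzyme and the nearest of them, had -0.09 (SE 0.09) and 0.09 (SE 0.06). Zfr, Mtmr12 and 6030458C11Rik had log2 fold changes from -0.07 to 0.13. Of the others, Pdzd2 was at 0.683 ± 0.127 RPKM in WT controls and 0.218 ± 0.0628 RPKM after TGF-β2, and 1810049J17Rik had no count in any library.

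The genes whose profile over the 12 libraries was nearest to that of Cdh6, by the root mean square distance of mean-centred log2(CPM + 0.5) values (CPM, the count scaled to the library total) among 10889 expressed genes, were Mmp9, Ctsw, Hbegf, Acsbg1 and Il11. Their distances were 0.42, 0.48, 0.55, 0.56 and 0.62, against a median of 2.00 over all ranked genes. A gene with no change would lie at 1.95, the spread of Cdh6 around its own mean. The median thus follows from the size of the Cdh6 change, for which Cdh6 was selected. Control values of Cdh6 were 0.248 to 0.66 CPM, so the pseudocount of 0.5 lowers its change on this scale. Mmp9, a gelatinase, was at 1.38 ± 0.251 RPKM in WT controls and 16.0 ± 0.682 RPKM after TGF-β2, and at 1.65 ± 0.528 and 22.0 ± 11.7 RPKM in Nox4 KO. Hbegf, an EGF receptor ligand, went from 20.2 ± 6.20 to 193 ± 1.90 RPKM in WT. Il11, a cytokine of the interleukin-6 family, went from 8.11 ± 1.20 to 108 ± 17.2 RPKM in WT. Ctsw, a cathepsin, and Acsbg1, an acyl-CoA synthetase, were at 0.470 ± 0.159 and 0.160 ± 0.0567 RPKM in WT controls and at 9.17 ± 1.71 and 2.36 ± 0.677 RPKM after TGF-β2. With a pseudocount of 0.1 in place of 0.5, 3 of the 5 stayed among the nearest.

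Cdh11, the mesenchymal type II cadherin, was the most abundant member in all 4 groups. It lies on chromosome 8 at 102632095-102785642, minus strand. Its level was 65.5, 58.9 and 68.9 RPKM in the WT controls and 110, 87.4 and 96.5 RPKM after TGF-β2. Nox4 KO libraries had 63.9, 55.5 and 65.2 RPKM in controls and 139, 127 and 96.5 RPKM after TGF-β2. Treated libraries lay above control libraries in both genotypes without overlap. The log2 fold change was 0.65 (SE 0.13) in WT and 1.06 (SE 0.15) in Nox4 KO, and leaving out any single library kept it at 0.52 to 0.74 and at 0.95 to 1.21.

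Of the 8 genes of a pericyte and smooth muscle list, 5 had a mean of at least 1 RPKM in some group. Like Cdh6 and Cdh11, their summed level was higher in treated libraries without overlap, at 95.5 to 141 RPKM in controls and 148 to 159 RPKM after TGF-β2 in WT, and at 123 to 133 and 154 to 200 RPKM in Nox4 KO. Its genes did not move one way. Cspg4, a proteoglycan, rose by 2.19 (SE 0.34, adjusted p = 0.00611 by edgeR) in WT and by 1.97 (SE 0.46, adjusted p = 0.0251) in Nox4 KO on the log2 scale, while Notch3, a receptor, fell by 2.04 (SE 0.31, adjusted p = 0.00564) and by 1.43 (SE 0.30, adjusted p = 0.0179). Of 8 macrophage genes, 7 reached a mean of 1 RPKM, and their sum was 27.7 to 130 RPKM in WT controls, 23.9 to 92.0 RPKM in treated WT libraries, 22.0 to 100 RPKM in Nox4 KO controls and 15.3 to 74.4 RPKM in treated Nox4 KO libraries, overlapping between conditions. None of 10 Schwann cell and melanocyte genes reached that mean. The part of these cell types in the Cdh6 and Cdh11 levels was not tested.

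Cdh2, N-cadherin, which is typical of mesenchymal and neural cells, lies on chromosome 18 at 16588877-16809246, minus strand. It was at 13.7, 14.4 and 13.2 RPKM in the WT controls and at 12.2, 8.56 and 12.2 RPKM after TGF-β2. Nox4 KO libraries were at 17.5, 15.3 and 23.4 RPKM in controls and at 17.3, 16.2 and 19.7 RPKM after TGF-β2. The WT groups did not overlap, with the treated libraries lower, while in Nox4 KO the groups overlapped. The log2 fold change was -0.29 (SE 0.16) in WT and 0.01 (SE 0.16) in Nox4 KO, and without replicate 2 of the treated WT libraries the first was -0.13.

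Cdh3, P-cadherin, is best known from basal keratinocytes and hair follicles and lies on chromosome 8 at 106510891-106557297, plus strand. Its level was 18.8, 21.6 and 17.6 RPKM in the WT controls and 10.8, 14.9 and 10.5 RPKM after TGF-β2. In Nox4 KO it was 36.8, 21.0 and 20.8 RPKM in controls and 21.4, 12.3 and 13.4 RPKM after TGF-β2. Control and treated libraries did not overlap in WT and did overlap in Nox4 KO, where replicate 1 was the highest under both conditions. The log2 fold change was -0.65 (SE 0.16) in WT and -0.65 (SE 0.31) in Nox4 KO. In Nox4 KO it was -0.32 without replicate 1 of the controls and -0.94 without replicate 1 of the treated libraries. Same-numbered Nox4 KO libraries deviated together over all genes, and with the replicate number as a block the value was -0.64 (SE 0.05). Within these pairs the log2(CPM + 0.5) difference was -0.78, -0.76 and -0.62.

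Of the 12 genes of the keratinocyte marker list, 2 reached a mean of 1 RPKM in some group, Perp and Sfn, although Cdh3 was at 10.5 RPKM or more in every library. The summed level of the list was 5.61 to 11.6 RPKM in WT controls, 11.0 to 23.0 RPKM after TGF-β2, 9.07 to 32.8 RPKM in Nox4 KO controls and 14.0 to 32.4 RPKM in treated Nox4 KO libraries. The basal keratins Krt5 and Krt14 stayed at or under 0.133 and 0.161 RPKM, Trp63 at or under 0.0436 RPKM and Epcam at or under 0.0612 RPKM, while Krt1, Krt15 and Dsg3 had at most 3 counts in any library. Sfn, a 14-3-3 protein, went from 1.54 ± 0.0434 to 10.7 ± 4.08 RPKM in WT (log2 fold change 2.82, SE 0.27, adjusted p = 0.0013 by edgeR) and from 1.82 ± 0.211 to 9.76 ± 0.494 RPKM in Nox4 KO (2.51, SE 0.13, adjusted p = 0.00101), while Cdh3 was lower after TGF-β2. Perp, a desmosome-associated membrane protein, was at 2.41 to 9.0 RPKM in WT libraries and at 3.75 to 29.9 RPKM in Nox4 KO libraries and was not called. Whether their cells of origin take part in the Cdh3 level was not tested.

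Cdh13, T-cadherin, which binds adiponectin, lies on chromosome 8 at 118283733-119324921, plus strand. It was at 8.89, 6.13 and 10.6 RPKM in the WT controls and at 4.30, 2.96 and 5.27 RPKM after TGF-β2. In Nox4 KO it was at 6.30, 8.12 and 14.1 RPKM in controls and at 3.03, 4.13 and 8.67 RPKM after TGF-β2. The WT groups did not overlap and the Nox4 KO groups did, with replicate 3 the highest under both conditions. The log2 fold change was -0.99 (SE 0.27) in WT and -0.76 (SE 0.46) in Nox4 KO. Without replicate 3 of the treated Nox4 KO libraries it was -1.31, and without replicate 3 of their controls -0.39. With the replicate block the Nox4 KO value was -0.82 (SE 0.09), and the differences within pairs were -1.03, -0.95 and -0.69 on the log2(CPM + 0.5) scale. In WT, where the numbers were not shown to pair cultures, the same differences were -1.03, -1.02 and -1.00.

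**Figure D2:**
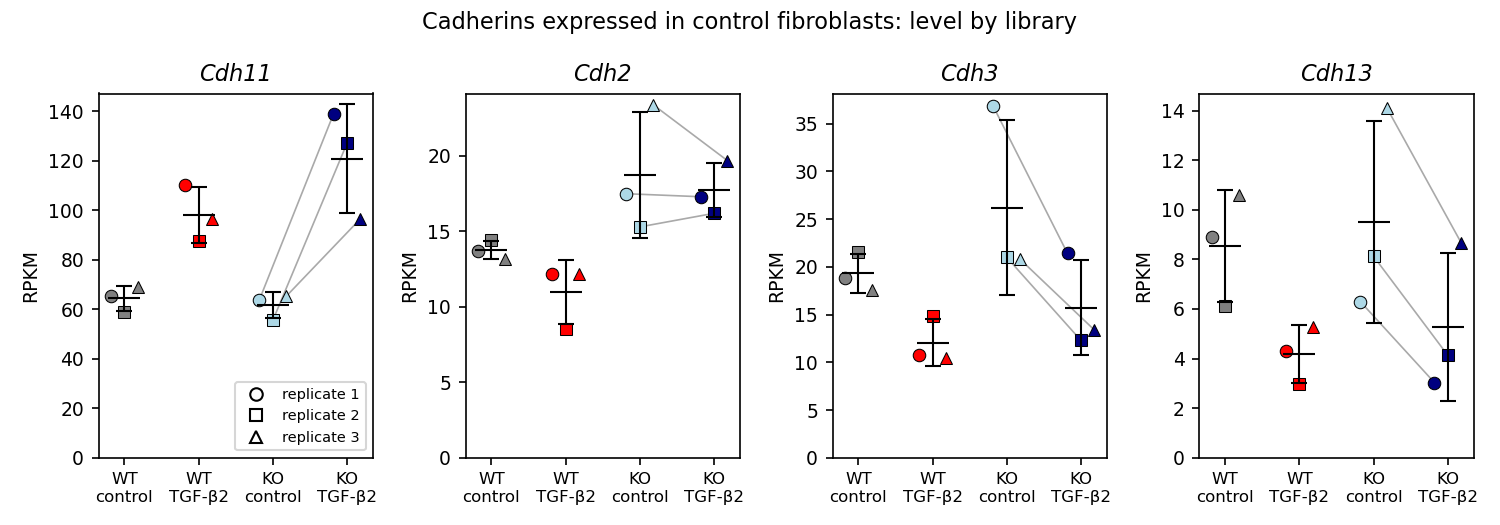
RPKM of Cdh11, Cdh2, Cdh3 and Cdh13 in each library by group, with mean ± SD of 3 replicates in black and grey lines joining same-numbered Nox4 KO libraries. Cdh11 is higher in all treated libraries, Cdh2 is higher in all Nox4 KO than in all WT libraries within each condition, and Cdh3 and Cdh13 go down along every grey line.

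Opposite-strand transcripts annotated within Cdh2, Cdh4 and Cdh13, and a transcript that overlaps Cdh5 in part, are not rows of the count table. Whether counting used strand is not given in the sources used here. Small RNAs or other short transcripts are annotated on the same strand within Cdh11 and Cdh13, and Cdh15 lies within Gm20388, a longer gene on its own strand. None of these could be separated from the members' own reads here.

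The other 4 members stayed near the limit of counting. Cdh1, E-cadherin of epithelia, lies on chromosome 8 at 106603351-106670246, plus strand, and had 0 to 4 counts per library. Cdh15, M-cadherin of muscle precursors, on chromosome 8 at 122847966-122867397, plus strand, had 0 to 6. A count of 0 in a library allows up to 3 counts, and no fold is given for either gene. Cdh5, VE-cadherin of endothelial junctions, on chromosome 8 at 104101625-104144511, plus strand, had 1 to 15 counts. Cdh4, R-cadherin of retina and brain, on chromosome 2 at 179442431-179899373, plus strand, had 13, 8 and 9 counts in the WT controls and 3, 5 and 3 after TGF-β2. Nox4 KO controls held 17, 14 and 6 counts and the treated libraries 6, 9 and 9, so the groups overlapped in Nox4 KO and not in WT.

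Markers of the cell types that carry these cadherins were measured beside them. The endothelial genes Pecam1 and Cldn5 reached at most 0.133 and 0.0185 RPKM. Of the 10 genes of that list, 2 had a mean of at least 1 RPKM in some group, Kdr, a VEGF receptor, at 1.48 to 4.62 RPKM over the libraries and Egfl7 at 0.599 to 2.30 RPKM. The summed level of the list was 3.54 to 5.69 RPKM in WT controls, 3.18 to 4.90 RPKM in treated WT libraries, 4.57 to 6.20 RPKM in Nox4 KO controls and 3.92 to 4.46 RPKM in treated Nox4 KO libraries. Of the 10 genes of the skeletal muscle list, 1 reached that level, Des, and the muscle stem cell factors Pax7 and Myf5 had at most 1 and 0 counts in a library. The summed level of that list was 1.18 to 6.60 and 1.12 to 4.37 RPKM in WT controls and treated WT libraries and 2.82 to 8.37 and 2.25 to 5.35 RPKM in Nox4 KO.

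Summed over the 10 genes, the level was 106 ± 4.58 RPKM in WT controls, 127 ± 13.1 RPKM in treated WT libraries, 116 ± 14.2 RPKM in Nox4 KO controls and 162 ± 22.0 RPKM in treated Nox4 KO libraries. Cdh11 made up 58.2 to 62.4% of it in WT controls and 76.0 to 78.4% after TGF-β2, and 51.2 to 55.5% and 69.1 to 78.3% in Nox4 KO. Cdh6 made up 0.0424 ± 0.0129% and 1.10 ± 0.468% in WT, and 0.0600 ± 0.00488% and 1.19 ± 0.569% in Nox4 KO. After TGF-β2, the mean of Cdh6 lay between those of Cdh13 and Cdh10 in both genotypes.

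**Figure D3:**
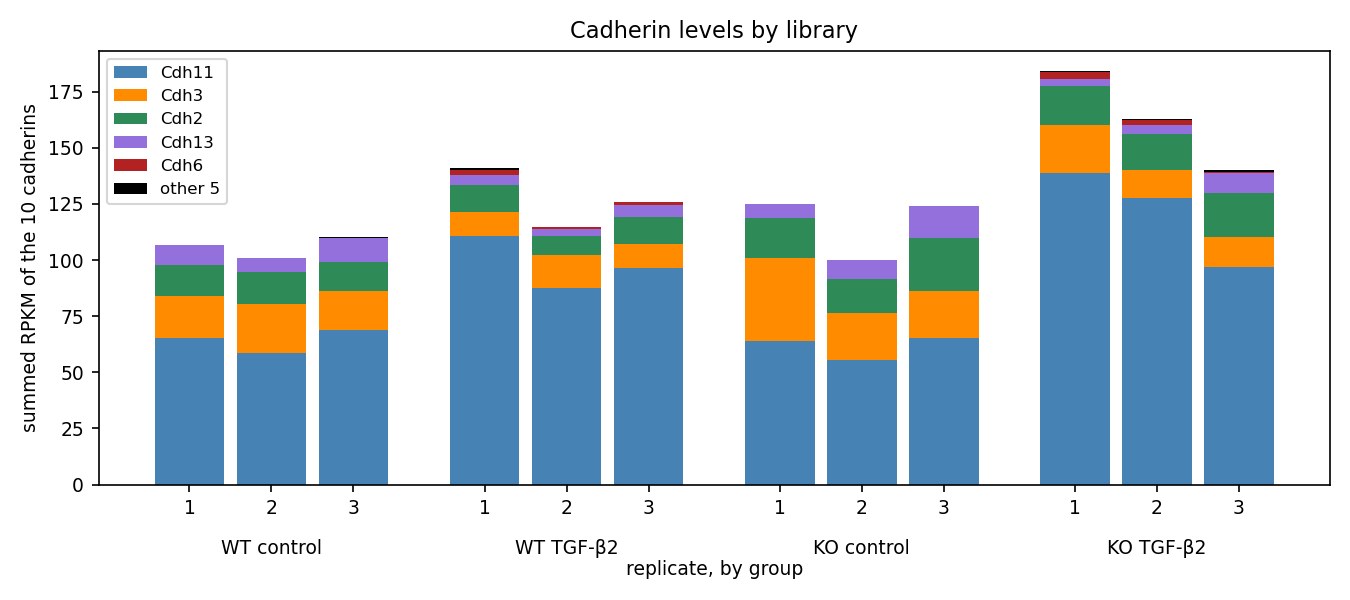
Summed RPKM of the 10 cadherins in each library, stacked by gene, with the 5 lowest members joined as other 5. Cdh11 fills 51.2% to 62.4% of the bar in control libraries and 69.1% to 78.4% after TGF-β2, while Cdh6 is a thin band present after TGF-β2.

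In the order of levels, Cdh11 stood above all other members in every library. In WT controls Cdh3, Cdh2 and Cdh13 followed at 19.3 ± 2.07, 13.8 ± 0.609 and 8.56 ± 2.27 RPKM without overlap between neighbours. After TGF-β2 in WT, Cdh3 and Cdh2 overlapped at 12.0 ± 2.46 and 11.0 ± 2.09 RPKM. They also overlapped in both Nox4 KO groups, and after TGF-β2 Cdh2 had the higher mean, at 17.7 ± 1.80 against 15.7 ± 4.92 RPKM. Cdh13 and Cdh6 overlapped in the treated Nox4 KO libraries, at 5.28 ± 2.99 and 2.01 ± 1.15 RPKM. The low members in controls, from Cdh6 down to Cdh1, overlapped with their neighbours throughout.

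Of the 10 members, 5 passed the filter of a mean of 1 RPKM in some group, Cdh6 only through its treated libraries. A gene was called where edgeR gave an adjusted p under 0.05 and the change reached 2-fold. By this rule 7.72% of 10743 genes tested were called in WT and 6.80% of 10809 in Nox4 KO after TGF-β2. As the members were selected with these contrasts known, no call is given for them there.

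The genotype comparisons asked whether the members differ without Nox4. No gene was called in controls (0% of 10767 tested, 597 at an unadjusted p under 0.05, and 5 higher and 1 lower by DESeq2) or after TGF-β2 (0% of 10439, 337 at an unadjusted p under 0.05, and 5 higher and 1 lower by DESeq2). Cdh2 was higher in all Nox4 KO libraries than in all WT libraries under both conditions. Such separation was seen for 13.6% of tested genes in controls and for 10.1% after TGF-β2. Same-numbered Nox4 KO libraries were taken as pairs, so the conditions are not independent, and the share separated in both was not counted. The log2 difference of Cdh2, Nox4 KO minus WT, was 0.40 (SE 0.15, adjusted p = 0.828) in controls and 0.70 (SE 0.18, adjusted p = 0.838) after TGF-β2 by edgeR, and the adjusted p over the alternative settings ran from 0.523 to 1 and from 0.139 to 0.999. The exact two-sided permutation test gave p = 0.1 in each condition, the smallest that 3 against 3 libraries allow, and 0.5 after adjustment over 20 tests. The difference thus did not pass a test, and the unadjusted p in edgeR was 0.0352 and 0.00594.

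The other tested members differed between genotypes by -0.11 to 0.40 on the log2 scale in controls and by 0.32 to 0.49 after TGF-β2, with adjusted p from 0.828 to 0.963. Cdh6 after TGF-β2 differed by 0.49 (SE 0.57, adjusted p = 0.839), and its libraries overlapped between genotypes. With single libraries left out, that difference ran from 0.07 to 0.99. In controls, Cdh6 had 10 to 16 counts in WT and 19 to 24 in Nox4 KO, which did not overlap, with an exact permutation p of 0.1. Cdh4 after TGF-β2 had 3 to 5 counts in WT and 6 to 9 in Nox4 KO, also with an exact permutation p of 0.1. For both genes that is the smallest possible p, and it was 0.5 after adjustment over 20 tests. Both were under the filter there, and the shares of separated genes given above cover only genes over it. For all other members the exact p was 0.2 or higher in both conditions.

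The interaction term asked whether the response to TGF-β2 itself differed between genotypes. No gene passed (0% of 10890 tested at an adjusted p under 0.05 by edgeR, 292 at an unadjusted p under 0.05, and 6, all lower, by DESeq2). For Cdh11 the response was larger in Nox4 KO by 0.43 on the log2 scale (SE 0.21, unadjusted p = 0.0639, adjusted p = 0.854). It was 0.31 (SE 0.25) for Cdh2, 0.24 (SE 0.58) for Cdh13, 0.01 (SE 0.36) for Cdh3 and -0.12 (SE 0.78) for Cdh6, with adjusted p from 0.854 to 0.998. With standard errors of 0.78 and 0.58 for Cdh6 and Cdh13, a difference of that size was not detectable in this fit. With the replicate number as a block within each genotype, the value was -0.16 (SE 0.66) for Cdh6 and 0.19 (SE 0.13) for Cdh13. The adjusted p by edgeR was then 0.92 and 0.542. That fit also pairs the WT libraries, whose numbers were not shown to pair cultures.

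**Figure D4:**
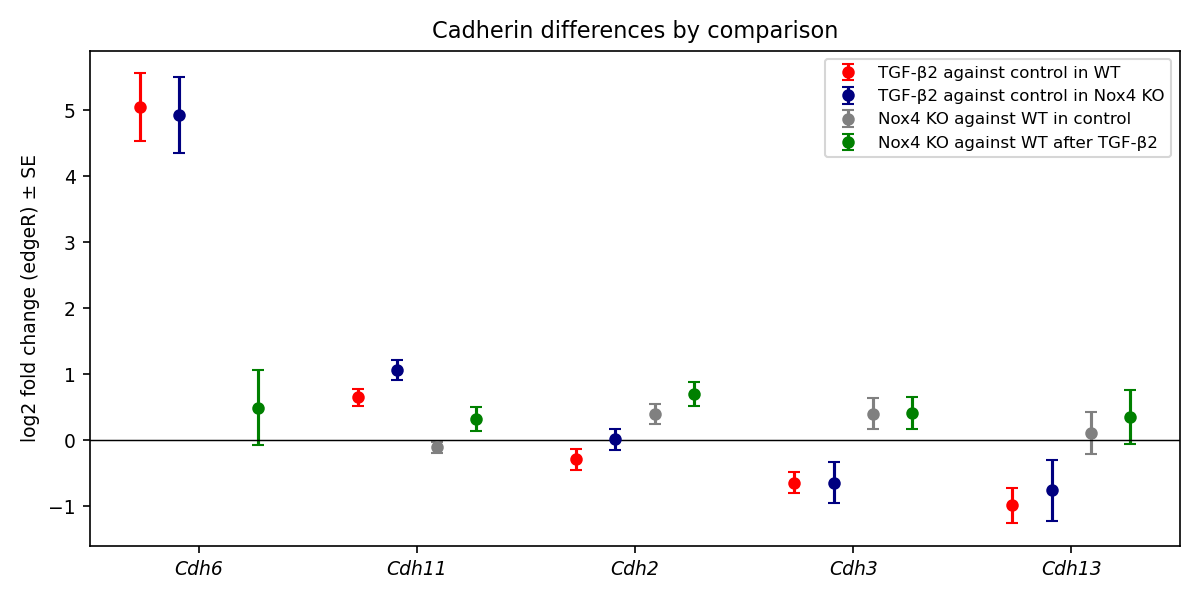
Log2 fold changes by edgeR with standard errors for the 5 cadherins that passed the filter, for TGF-β2 against control in each genotype and for Nox4 KO against WT in each condition. Cdh6 stands at 5.05 and 4.93 after TGF-β2, the other TGF-β2 values lie between -0.99 and 1.06, and the genotype differences lie between -0.11 and 0.70. No control value is shown for Cdh6, which is under the filter there.

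The cytoplasmic partners of cadherins were examined as a list of 23 genes of the catenin complex and adherens junction, of which 19 were tested. After TGF-β2, WT had 3 calls up and 2 down, and Nox4 KO 2 up and 2 down. Of all tested genes, 7.72% and 6.80% were called in either direction. At any fold, 9 and 13 of the 19 passed an adjusted p of 0.05, against 22.6% and 30.0% of all tested genes. The list's median log2 fold change came to -0.01 for WT and 0.11 for Nox4 KO, against 0.00 and -0.01 over all tested genes. Ctnnal1, an α-catenin relative, fell from 4.47 to 0.677 RPKM in WT (log2 fold change -2.69, SE 0.26, adjusted p = 0.00134) and from 5.29 to 1.17 RPKM in Nox4 KO (-2.09, SE 0.37, adjusted p = 0.0112). Arvcf, a p120-catenin relative, fell in WT (-2.27, SE 0.21, adjusted p = 0.00113) and in Nox4 KO (-1.71, SE 0.39, adjusted p = 0.0223).

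The nectins are adhesion molecules that share junctions with cadherins. Nectin3 rose by 1.15 (SE 0.08, adjusted p = 0.000459) in WT and by 1.23 (SE 0.14, adjusted p = 0.00382) in Nox4 KO on the log2 scale. Pvr, a nectin-like receptor, rose by 1.00 in WT (SE 0.10, adjusted p = 0.00123) and in Nox4 KO (SE 0.24, adjusted p = 0.0249). Ajuba, a LIM protein that binds α-catenin, rose by 1.03 in WT (SE 0.15, adjusted p = 0.00502) and by 0.79 in Nox4 KO (SE 0.07, adjusted p = 0.00271), short of the 2-fold limit. The most abundant genes of the list were not called. Vcl, the actin linker vinculin, had a log2 fold change of -0.72 (SE 0.26) in WT and -0.25 (SE 0.10) in Nox4 KO. Ctnnb1, β-catenin, had -0.08 (SE 0.08) and 0.06 (SE 0.06) at group means of 105 to 114 RPKM.

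Of 28 genes for cadherin shedding and turnover, 27 were tested, of which WT had 1 call up and 1 down, and Nox4 KO 2 up and 0 down. The list's median was 0.08 and 0.10. At any fold 7 and 10 of the 27 passed, against 22.6% and 30.0% of all tested genes. Mmp9, which was also the gene nearest to Cdh6 in profile, rose by 3.57 (SE 0.16, adjusted p = 0.000236) in WT and by 3.82 (SE 0.48, adjusted p = 0.00506) in Nox4 KO. Mmp14, a membrane-bound metalloprotease and the most abundant gene of the list, rose from 212 to 391 RPKM in WT (0.92, SE 0.18, adjusted p = 0.0140) and from 203 to 396 RPKM in Nox4 KO (1.04, SE 0.16, adjusted p = 0.00776), a call only in the latter. Ptprf, a receptor tyrosine phosphatase found at adherens junctions, fell in WT (-1.11, SE 0.16, adjusted p = 0.00479) and had -0.73 (SE 0.30, adjusted p = 0.118) in Nox4 KO. Adam9, a sheddase, had -0.42 (SE 0.14, adjusted p = 0.0759) and -0.25 (SE 0.10, adjusted p = 0.112).

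Among 24 transcription factors known for cadherin genes, 14 were tested, of which 2 rose and 2 fell past the call in WT, and 1 rose and 1 fell in Nox4 KO. The median stood at -0.10 for WT and -0.02 for Nox4 KO. At any fold 6 of the 14 passed in each genotype, against 22.6% and 30.0% of all tested genes. Snai2, a zinc finger repressor of E-cadherin, fell from 18.6 to 8.50 RPKM in WT (-1.09, SE 0.13, adjusted p = 0.00228) and from 18.4 to 8.51 RPKM in Nox4 KO (-1.03, SE 0.15, adjusted p = 0.00702). Snai1, its relative and the most abundant gene of the list, had 0.30 (SE 0.14, adjusted p = 0.162) and 0.12 (SE 0.14, adjusted p = 0.547). Runx1, a runt-domain factor, rose by 1.10 (SE 0.15, adjusted p = 0.00380) and by 1.34 (SE 0.30, adjusted p = 0.0208). Foxc2, a forkhead factor, rose in WT by 1.07 (SE 0.17, adjusted p = 0.00619) and had 0.97 (SE 0.40, adjusted p = 0.116) in Nox4 KO. Tcf4, an E-box-binding factor, fell in WT (-1.04, SE 0.20, adjusted p = 0.0120) and in Nox4 KO by less than 2-fold (-0.55, SE 0.16, adjusted p = 0.0435). Sox4 had -0.27 (SE 0.19) and -0.02 (SE 0.15).

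Of 30 other genes of the cadherin superfamily, 9 were tested in WT and 8 in Nox4 KO, with 0 called higher and 2 lower in WT and none called in Nox4 KO. At any fold, 4 of the 9 passed in WT and 2 of the 8 in Nox4 KO, against 22.6% and 30.0% of all tested genes. Medians stood at -0.41 and -0.17. Fat4, a giant protocadherin of planar polarity, fell in WT (-1.49, SE 0.34, adjusted p = 0.0217) and by less than 2-fold in Nox4 KO (-0.87, SE 0.17, adjusted p = 0.0157). Pcdh9, a protocadherin, fell in WT (-1.34, SE 0.27, adjusted p = 0.0155) and had -1.00 (SE 0.51, adjusted p = 0.187) in Nox4 KO. Fat1, the most abundant of them, had -0.56 (SE 0.30, adjusted p = 0.212) and -0.07 (SE 0.11, adjusted p = 0.644). Clstn1, a calsyntenin, fell by less than 2-fold, by 0.41 (SE 0.11, adjusted p = 0.0351) in WT and by 0.26 (SE 0.07, adjusted p = 0.0365) in Nox4 KO. Of 13 further classical or truncated cadherins, 1 was tested, Cdh24, which had 0.03 (SE 0.24) and -0.03 (SE 0.38). Cdh26, the next in level, was at 0.269 to 0.502 RPKM in WT controls and 0.0724 to 0.107 RPKM after TGF-β2, under the filter.

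Over the 5 lists, 13 genes were called in WT and 8 in Nox4 KO, where 7.72% and 6.80% of all tested genes were called. The numbers tested are given with each list above. Without replicate 3 of the WT controls the first count was 8, and without replicate 1 of the Nox4 KO controls or replicate 2 of the treated Nox4 KO libraries the second was 5. In both genotype comparisons and in the interaction, 0 genes of the 5 lists were called by edgeR. For the 14 genes called in either genotype, the adjusted p of the interaction was 0.854 or higher, so a call in one genotype alone does not show a difference between them.

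**Figure D5:**
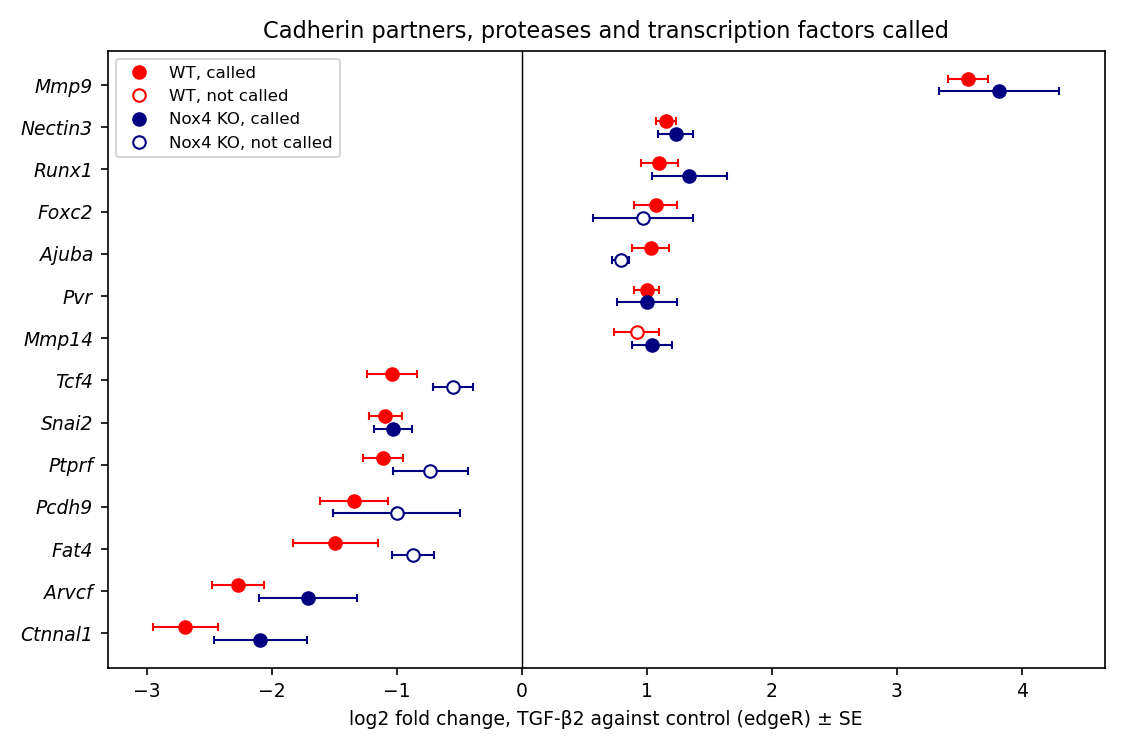
Log2 fold changes after TGF-β2 with standard errors (edgeR) of the 14 list genes called in at least one genotype, WT in red and Nox4 KO in blue, with filled points for called values. Mmp9 is the highest at 3.57 and 3.82 and Ctnnal1 the lowest at -2.69 and -2.09, and each gene has the same sign in both genotypes.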

How the data were processed

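RNA sequencing counts of 12 libraries, 3 in each of 4 groups, were analysed. The deposited values are raw read counts per Ensembl gene, which the authors made with STAR 2.4 and featureCounts 1.4.6 on GRCm38 (submitters' processing notes). Members and gene lists were chosen with earlier results of these data known. Genes with a mean of at least 1 RPKM in a compared group were fitted with edgeR 4.0.16 (R 4.3.3; quasi-likelihood test, TMM scaling, Benjamini-Hochberg adjustment over all tested genes). RPKM used library totals and summed exon lengths of protein-coding transcripts (GENCODE M21), or of all transcripts for 457 genes. Each comparison was fitted on its own groups. Genes named were the 10 members, Nox4, the 5 nearest to Cdh6, its neighbours, and list genes called or among the 2 most abundant. Marker genes were named beside them after their values were seen. Fits were tested on simulated data. Alternatives were DESeq2 1.42.0, other scalings and filters, all libraries, a replicate block and left-out libraries. Same-numbered Nox4 KO control and TGF-β2 libraries deviated together (r = 0.763, 0.682 and 0.755 over 11214 genes), and the numbers were taken to pair them. Intervals and floors cover counting error only.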

Additional observations from a re-analysis of the deposited data

How the results depend on the processing

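The log2 fold change of Cdh6 after TGF-β2 kept its direction and stayed within the spread between replicates under every alternative run, at 4.55 to 5.37 in WT and 4.51 to 5.32 in Nox4 KO, the ends being set by left-out libraries. With the replicate block it was 4.95 and 4.86, and the list genes called were 12 and 8 against 13 and 8. In WT the same-numbered libraries correlated at 0.0394, 0.451 and 0.528, so the pairing was not taken there. The block raised the genes passing at any fold in Nox4 KO from 1637 higher and 1606 lower to 2729 and 3113, and with it Cdh13 in WT was -1.00 after rounding and short of 2-fold before it, so no member gained or lost a 2-fold change. Cdh13 in WT, at -0.99 just short of 2-fold, passed it at -1.01 with upper-quartile scaling, at -1.04 with library totals, at -1.15 without replicate 2 of the controls and at -1.03 and -1.19 without replicates 1 and 3 of the treated libraries. Cdh13 in Nox4 KO passed it at -1.31 without replicate 3 of the treated libraries. Cdh11 in Nox4 KO, at 1.06, was 1.00 with upper-quartile scaling and fell short at 0.97 with library totals and at 0.95 without replicate 1 of the treated libraries. At any fold, 26 list genes passed in WT and 31 in Nox4 KO, against 22.6% and 30.0% of all tested genes. Leaving out single libraries gave 8 to 13 and 5 to 10 list genes called. Without the filter, 391 genes rose and 868 fell in WT, against 282 and 547. With a pseudocount of 0.1, 3 of the 5 genes nearest to Cdh6 were kept.

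Among the members, reversals of sign were seen only in differences that passed no test, and the cause was not tested. The largest of these was 0.35 (SE 0.41, adjusted p = 0.839 by edgeR), for Cdh13 between genotypes after TGF-β2. The Cdh2 response in Nox4 KO, 0.01 in the main fit, was -0.11 to 0.18 with single libraries left out. The interaction of Cdh3 was -0.05 with upper-quartile scaling, -0.05 with library totals and -0.02 without the filter, and -0.27 to 0.34 with single libraries left out. Leaving out single libraries also gave -0.53 to 0.38 for the interaction of Cdh6, -0.31 to 0.60 for that of Cdh13, and -0.27 to 0.33 in controls and -0.20 to 0.62 after TGF-β2 for Cdh13 between genotypes. Depth limits Cdh1, Cdh4, Cdh5 and Cdh15, whose counts were at most 17.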
